A study of Homo sapiens with 4 samples.

Results

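The genes described here are 38 regulators of apoptosis, chosen by name: inhibitor of apoptosis proteins (IAPs), death receptors with their adaptors, caspases and the apoptosome, and the BCL2 family. They match 39 of the 58735 gene identifiers of the deposited table, since DIABLO is listed under 2 identifiers. RNA was sequenced from H1299, an established human lung carcinoma line. Cells were given 0.5 mM methylparaben, a preservative ester of hydroxybenzoic acid, for 48 h (2 libraries), or were labelled as a control with ethanol (2 libraries), for which the labels give no volume or time. All 4 libraries come from this 1 line, and the labels do not say whether the replicates were separate cultures. The p-values therefore measure only the spread between these libraries, which may be technical.

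Apoptosis can be started by death receptors at the cell surface, which recruit FADD and caspase-8, or at mitochondria, where BAX and BAK1 open the outer membrane and release cytochrome c. Anti-apoptotic BCL2 proteins hold BAX and BAK1 in check, BH3-only proteins oppose them, and released cytochrome c assembles APAF1 and caspase-9 into the apoptosome. CFLAR restrains caspase-8 at the receptors, and IAPs act on caspases and on receptor signalling as ubiquitin ligases. Tumour cells often express such inhibitors at high levels.

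The libraries held 3760982 and 2068486 counted reads with methylparaben, and 2368658 and 2182058 with ethanol. Levels are given in CPM, reads relative to the scaled library size. Taking 3 counts as the limit, a gene at 0 could still reach 0.816 and 1.57 CPM in the methylparaben libraries and 1.28 and 1.30 CPM in the ethanol libraries, by counting error only. The 10 carcinoma and mesenchymal markers summed to 2400 and 1116 reads with methylparaben and 3200 and 4271 with ethanol. Most of these were on AXL, a receptor of mesenchymal carcinoma cells, with 599 and 534 CPM with methylparaben and 1253 and 1767 CPM with ethanol (log2 fold change -1.41 ± 0.20, adjusted p = 0.000733). VIM, which encodes vimentin, was also lower, with 35.6 and 32.4 CPM with methylparaben and 88.0 and 68.0 CPM with ethanol (-1.19 ± 0.25, adjusted p = 0.00565), and none of its reads lay on a coding transcript. The keratin genes KRT8 and KRT18 did not pass, FN1 had 31 reads, all on retained-intron transcripts, and CDH2 had 1 read and KRT7 2. The part of these shifts in the results below was not tested. All 7 lung lineage markers and all 6 blood markers were at 0, as were EPCAM, CDH1 and KRT19 of the carcinoma list. Some had few bases on which a read could be counted, as described below, such as CD14 with 238, SCGB1A1 with 257 and NKX2-1 with 272. Their 0 counts say little. Others had more, such as PTPRC with 3848 and KRT5 with 2272. Fibroblast markers summed to 0 and 6 reads with methylparaben and 2 and 6 with ethanol, with COL1A2 and LUM at 0. Endothelial markers summed to 2 and 1 reads with methylparaben and 0 and 0 with ethanol, with VWF, CDH5 and KDR at 0. In bulk RNA, fewer cells of a kind and less RNA per cell cannot be told apart.

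The deposited counts lie only on bases held by 1 annotated transcript and no other, here called readable bases, which decides which regulators could be seen. Of the 38 genes, 13 had enough reads to be tested, 13 had 1 to 23 reads in all libraries together, and 12 had none. Those with no read were XIAP, FADD, RIPK1, RIPK3, CASP10, APAF1, BCL2L1, BCL2A1, BAK1, BAD, BMF and BCL2L11. BCL2L1, which encodes BCL-XL, had 0 readable bases and BAK1, a pore former, had 20. The 0 counts of such genes say nothing of their RNA. CASP10, a caspase of the death receptors, and RIPK3, a kinase of necroptosis, had 1496 and 1422 readable bases and still no read. In the tested genes 59.3% of the readable bases lay in 3′ UTRs and 4.10% in coding sequence, so most counts below follow 3′ ends, leaders or noncoding transcripts. Of the 3138 transcripts that would have a readable base only with the strands kept apart, 0 had a read, so strand appears unused in the counting, and antisense RNA over the same bases cannot be told apart.

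**Figure D1:**
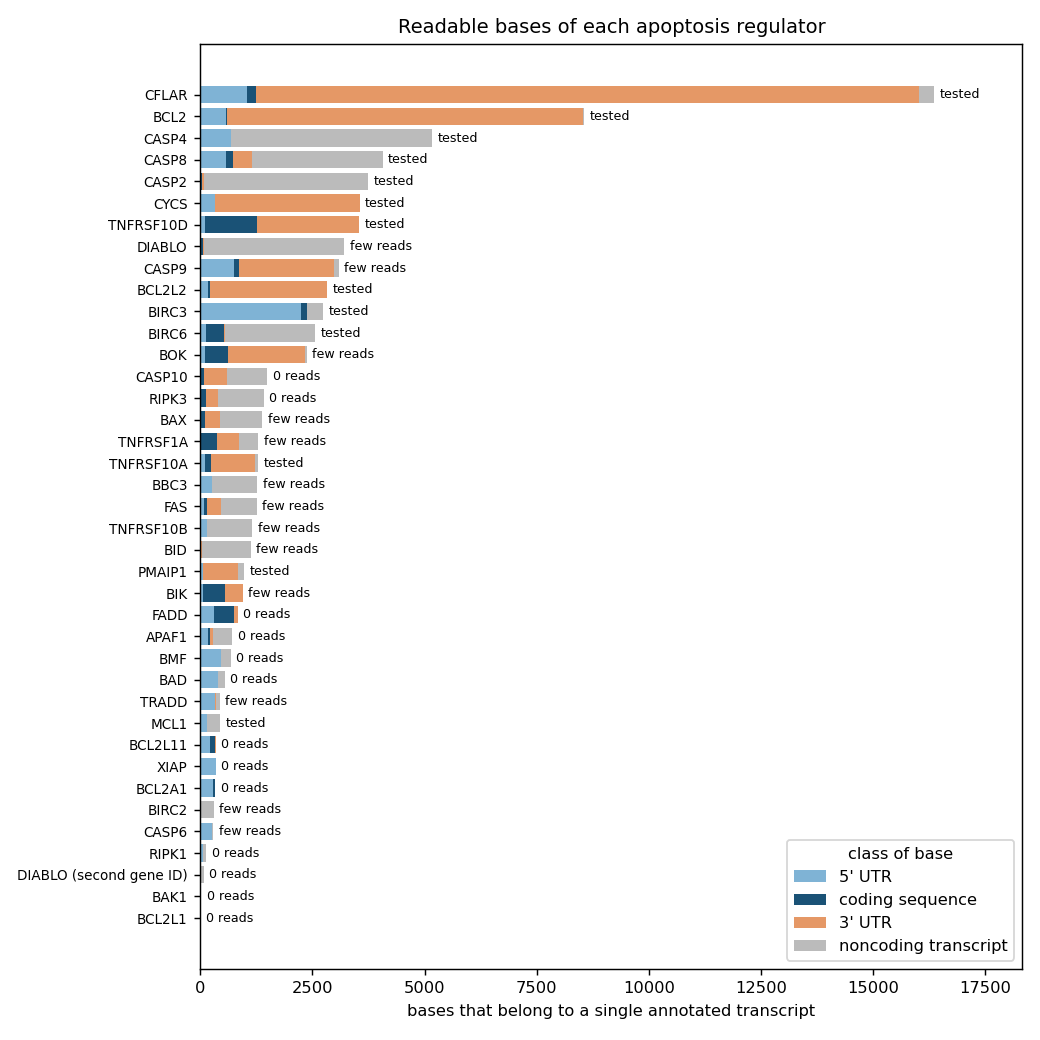
Readable bases (held by 1 annotated transcript) for each of the 39 gene identifiers, coloured by class and marked by whether the gene was tested, had few reads or had 0 reads. Readable length runs from 0 bases in BCL2L1 to 16366 in CFLAR, and the 13 tested genes span 437 to 16366 bases.

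Of the 13 tested regulators, 6 changed between methylparaben and ethanol (46.2%), against 36.9% of all 8055 genes tested. BIRC3, CFLAR, CASP8 and BCL2 fell, and BCL2L2 and BIRC6 rose. Genes called lower made up 18.4% of all genes tested and genes called higher 18.5%. The median log2 fold change of the 13 was -0.03, beside 0.03 over all genes. In 8 of the 13 the libraries of the groups did not overlap, and across all genes this held for 70.5%. The share called among the regulators was near the background, so the values below describe single genes. Without ethanol 1, 1677 genes passed instead of 2976, and of the regulators only the 4 that fell did.

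**Figure D2:**
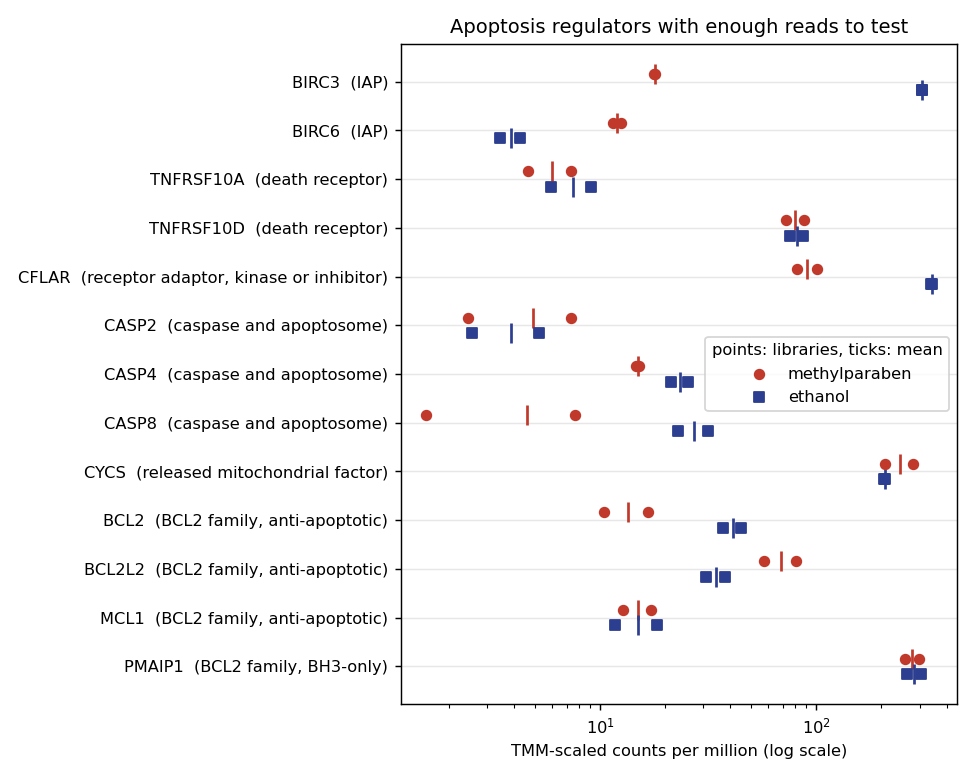
TMM-scaled CPM (log axis) of the 13 tested regulators in each library, methylparaben as circles above ethanol as squares, with the group mean as a tick. BIRC3 sits at 17.8 to 18.0 CPM in methylparaben libraries and at 309 CPM in ethanol libraries, while PMAIP1, MCL1 and TNFRSF10D overlap between groups.

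Promoter sequences are shown for changed genes whose RefSeq start lay within 50 bases of the annotated start of a transcript with at least 10% of the gene's reads. The reads do not show that this start was used. For BIRC3 and CASP8 the readable bases of that transcript lie away from its start, at chr11:102322243-102324455 and chr2:201240270-201242925. RNA from another start over the same bases would be counted alike. The 250 bases before the start are given from RefSeq (GRCh38.p14), all on the + strand, with matches to the NF-kB consensus on either strand in capitals. NF-kB is a factor known to act on BIRC3. Their positions are chr11:102317234-102317483 for BIRC3, chr2:201233213-201233462 for CASP8 and chr2:32356773-32357022 for BIRC6.
BIRC3: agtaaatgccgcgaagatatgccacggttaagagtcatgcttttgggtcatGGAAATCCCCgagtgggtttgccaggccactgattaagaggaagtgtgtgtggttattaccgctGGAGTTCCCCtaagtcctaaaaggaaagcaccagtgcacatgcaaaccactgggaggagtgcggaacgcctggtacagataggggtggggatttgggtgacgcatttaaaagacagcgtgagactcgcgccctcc
CASP8: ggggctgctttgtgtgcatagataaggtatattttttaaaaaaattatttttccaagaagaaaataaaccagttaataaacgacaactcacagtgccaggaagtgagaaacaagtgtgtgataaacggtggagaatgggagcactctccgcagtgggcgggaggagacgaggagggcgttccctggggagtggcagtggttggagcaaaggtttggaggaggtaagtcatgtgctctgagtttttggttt
BIRC6: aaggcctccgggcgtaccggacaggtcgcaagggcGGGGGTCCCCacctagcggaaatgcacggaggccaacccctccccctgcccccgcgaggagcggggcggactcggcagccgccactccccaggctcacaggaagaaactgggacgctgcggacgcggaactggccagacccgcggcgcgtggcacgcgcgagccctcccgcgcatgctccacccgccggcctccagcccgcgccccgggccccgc
BIRC3, which fell, held 2 matches, at 199 to 190 and at 135 to 126 bases before the start. BIRC6, which rose, held 1, at 215 to 206 bases before the start. CASP8, which fell, held none. Such a match was present in 9.96% of all 35116 RefSeq promoters of this length. TGACG occurred once in the BIRC3 sequence, at 38 to 34 bases before the start, and in neither of the others, against 21.2% of all promoters. GGGCGG occurred at 2 places in BIRC6, of which 1 overlaps its NF-kB match, at 1 place in CASP8 and not in BIRC3, against 42.6% of all promoters. TATAAA was in none of the 3 sequences and in 10.7% of all promoters. Both strands were searched, and a match describes letters in this window only.

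Among the IAPs, BIRC3 fell 17.2-fold and BIRC6 rose 3.10-fold. BIRC3 (chr11:102317450-102339403) encodes a ubiquitin ligase that works at tumour necrosis factor receptors. It had 66 and 34 reads with methylparaben and 726 and 713 with ethanol, or 18.0 and 17.8 CPM against 309 and 309 CPM. The mean was 17.9 ± 0.12 CPM with methylparaben and 309 ± 0.11 CPM with ethanol (SD, n = 2 each). These SDs lie below the counting error of such read numbers, so they do not measure the precision of the levels. Both methylparaben libraries lay far below both ethanol libraries, and the replicates of each group were nearly equal. The log2 fold change was -4.11 ± 0.20 (SE), with an adjusted p of 8.6e-06 in edgeR's quasi-likelihood test. It lay between -4.21 and -3.83 under the 17 alternative settings, past the threshold in each. Of the BIRC3 reads 99.8% fell on BIRC3-201, whose 2213 readable bases are one stretch of its 5′ UTR (chr11:102322243-102324455, GRCh38), so the fall was measured on a leader and not on the coding exons.

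BIRC6 (chr2:32357028-32618899) encodes a giant IAP that is a ubiquitin-conjugating enzyme. It had 46 and 22 reads with methylparaben and 10 and 8 with ethanol, or 12.5 and 11.5 CPM against 4.25 and 3.46 CPM. The groups did not overlap, and the log2 fold change was 1.63 ± 0.49 with an adjusted p of 0.0261. The call was lost with DESeq2 (adjusted p = 0.105) and without ethanol 1, ethanol 2 or methylparaben 1 (adjusted p = 0.0889, 0.110 and 0.112). Retained-intron transcripts held 77.9% of its reads and the coding transcript BIRC6-201 17.4%. BIRC6-204, a retained-intron transcript ending within the gene, had 10 and 6 reads with methylparaben and 0 and 0 with ethanol. Set against 3 counts over the ethanol group, this is 4.16-fold higher. That figure leaves out the counting error of the methylparaben reads, so it is not a lower bound. BIRC6-209, another retained-intron transcript, had 12 and 6 reads with methylparaben and 0 and 2 with ethanol, a ratio of 7.03 (1.68 to 62.4, exact 95% interval for counting error only). BIRC6-201 had 13 and 2 reads with methylparaben and 0 and 0 with ethanol. This is 3.90-fold higher against the same 3 counts, again without the counting error of the methylparaben reads. BIRC6-206 went the other way in counts, with 2 and 1 reads with methylparaben and 8 and 4 with ethanol, a ratio of 0.195 (0.0353 to 0.723). None of these 4 transcripts had enough reads for the edgeR test. BIRC2, the close relative of BIRC3, had 4 and 5 reads with methylparaben and 5 and 5 with ethanol, on 1 noncoding transcript in all but 1 read, a ratio of 0.703 (0.253 to 1.92). XIAP, a direct caspase inhibitor, had no read on its 343 readable bases.

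No tested death receptor passed the threshold. TNFRSF10D, a decoy receptor for the death ligand TRAIL, had 72.6 and 87.4 CPM with methylparaben and 75.7 and 87.0 CPM with ethanol. Its log2 fold change was -0.03 ± 0.22 (adjusted p = 0.938), and the groups overlapped fully. TNFRSF10A, a signalling TRAIL receptor, had 4.63 and 7.33 CPM with methylparaben and 5.95 and 9.09 CPM with ethanol, a log2 fold change of -0.37 ± 0.53 (adjusted p = 0.620). TNFRSF10B, the other signalling TRAIL receptor, had 3 and 8 reads with methylparaben and 0 and 0 with ethanol. Set against 3 counts over the ethanol group, this is 2.86-fold higher, without the counting error of the methylparaben reads. All of those reads lay on retained-intron transcripts. FAS, the receptor of FAS ligand, had 2 and 0 reads with methylparaben and 5 and 5 with ethanol, a ratio of 0.156 (0.0166 to 0.733). TNFRSF1A, the main receptor of tumour necrosis factor, had 0 and 3 reads with methylparaben and 0 and 1 with ethanol. These low counts carry no replicate test.

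Of the genes of the receptor complex, counts of CFLAR and CASP8 both fell, those of CASP8 almost wholly on a noncoding transcript. CFLAR (chr2:201116104-201176687) encodes an inactive relative of caspase-8 that competes with it for FADD. It had 370 and 155 reads with methylparaben and 807 and 783 with ethanol, or 101 and 81.1 CPM against 343 and 339 CPM. Each methylparaben library lay below each ethanol library, with a log2 fold change of -1.90 ± 0.18 and an adjusted p of 0.00013. The change stayed past the threshold in all 17 alternatives, from -2.08 to -1.23, the smallest on log2 FPKM. CASP8 (chr2:201233443-201287711), the initiator caspase of the receptors, had 28 and 3 reads with methylparaben and 74 and 53 with ethanol, or 7.62 and 1.57 CPM against 31.5 and 22.9 CPM. The methylparaben libraries differed widely from each other, yet both lay below the ethanol libraries. Its log2 fold change was -2.40 ± 0.54 (adjusted p = 0.00753), and it was -4.07 without methylparaben 1 and -1.80 without methylparaben 2, with the call kept in both. The processed transcript CASP8-220, which has no coding sequence, held 93.7% of the CASP8 reads, and its readable bases include the stretch chr2:201240270-201242925. Coding CASP8 transcripts held 5.06%, and CASP8-208 had 0 and 0 reads with methylparaben and 6 and 1 with ethanol. Unspliced RNA over the CASP8-220 stretch would be counted alike. The adaptors FADD and RIPK1 had no read, and TRADD had 0 and 0 reads with methylparaben and 0 and 1 with ethanol.

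CASP2 and CASP4 did not pass at gene level. CASP4 encodes an inflammatory caspase that senses bacterial lipopolysaccharide in the cytosol. It had 14.7 and 15.2 CPM with methylparaben and 25.5 and 21.2 CPM with ethanol, without overlap, and a log2 fold change of -0.65 ± 0.33 (adjusted p = 0.155). CASP2, an initiator caspase, had 2.45 and 7.33 CPM with methylparaben and 2.55 and 5.19 CPM with ethanol, and its log2 fold change of 0.23 ± 0.71 (adjusted p = 0.828) is too imprecise to give a direction. Retained-intron transcripts held 98.4% of CASP4 reads and 92.7% of CASP2 reads. CASP9, the apoptosome caspase, had 3 and 6 reads with methylparaben and 1 and 2 with ethanol, a ratio of 2.34 (0.584 to 13.4). CASP6, an effector caspase, had 0 and 3 reads with methylparaben and 0 and 0 with ethanol.

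Of the factors that leave mitochondria, CYCS, which encodes cytochrome c, had 279 and 208 CPM with methylparaben and 206 and 208 CPM with ethanol. Methylparaben 1 was high and methylparaben 2 stood at the ethanol level, with a log2 fold change of 0.24 ± 0.19 (adjusted p = 0.343). Every CYCS read lay on CYCS-201, whose readable bases are almost wholly in its 3′ UTR. DIABLO, which encodes a protein that binds IAPs, had 21 and 0 reads with methylparaben and 1 and 0 with ethanol, all its methylparaben reads in 1 library. The ratio was 16.4 (2.64 to 678), and without methylparaben 2 DIABLO could be tested and passed (adjusted p = 0.0298), a call that then rests on that 1 library.

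**Figure D3:**
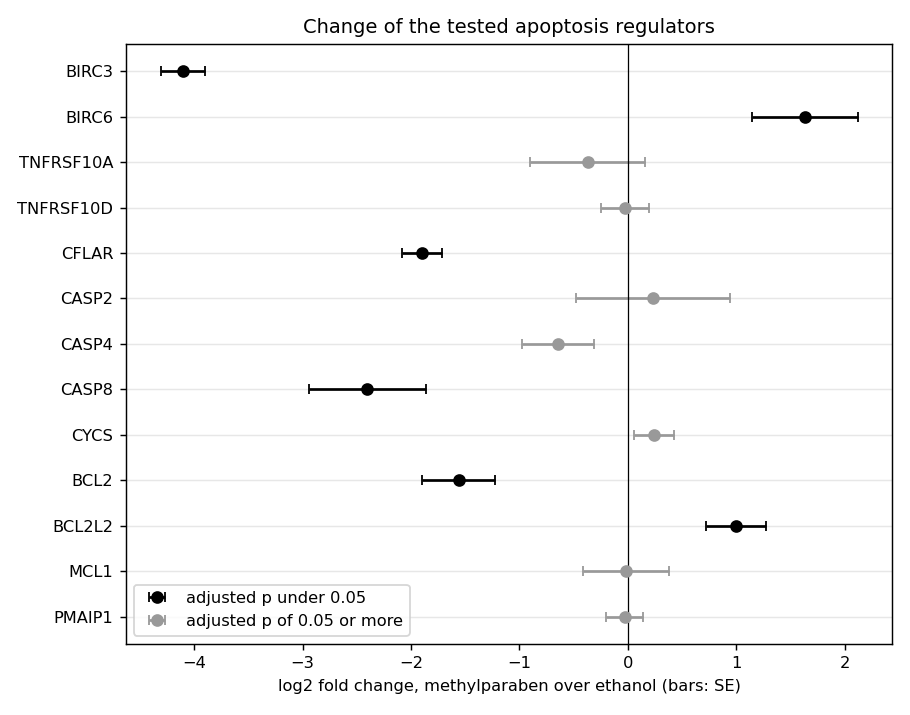
The log2 fold change of methylparaben over ethanol for the 13 tested regulators, with the SE as bars, black where the adjusted p was under 0.05 and grey elsewhere. BIRC3 stands at -4.11, CASP8 at -2.40, CFLAR at -1.90 and BCL2 at -1.56, with BIRC6 at 1.63 and BCL2L2 at 0.999 on the other side of 0.

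In the BCL2 family, BCL2 fell and BCL2L2 rose, while MCL1 and PMAIP1 did not pass. BCL2 (chr18:63123346-63320128), the founding anti-apoptotic member, had 61 and 20 reads with methylparaben and 87 and 104 with ethanol, or 16.6 and 10.5 CPM against 37.0 and 45.0 CPM. The groups did not overlap, the log2 fold change was -1.56 ± 0.33, and the adjusted p was 0.00605. At transcript level BCL2-203 passed and BCL2-202 did not, and unspliced BCL2 RNA cannot be told apart from BCL2-203, as described below. BCL2L2 (chr14:23298790-23311759), which encodes the anti-apoptotic BCL-W, had 211 and 154 reads with methylparaben and 89 and 71 with ethanol, or 57.4 and 80.6 CPM against 37.8 and 30.7 CPM. Both methylparaben libraries were higher than both ethanol libraries, with a log2 fold change of 0.999 ± 0.27 and an adjusted p of 0.0178. The BCL2L2 call was lost without ethanol 1 (adjusted p = 0.0557), without ethanol 2 (0.0890) and in limma on log2 FPKM (0.0712 with a pseudocount of 1).

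MCL1, a short-lived anti-apoptotic member, had 12.8 and 17.3 CPM with methylparaben and 18.3 and 11.7 CPM with ethanol, a log2 fold change of -0.02 ± 0.40 (adjusted p = 0.982). All its reads came from the processed transcript MCL1-203, on 286 bases, and none lay on a coding MCL1 transcript. PMAIP1, which encodes NOXA, a BH3-only partner of MCL1, had 298 and 257 CPM with methylparaben and 304 and 263 CPM with ethanol. Its log2 fold change was -0.03 ± 0.17 (adjusted p = 0.915), the smallest SE of the 13 genes, with groups that overlapped. Of the pore formers, BAX had 0 and 5 reads with methylparaben and 0 and 1 with ethanol, and BOK had 9 and 7 with methylparaben and 5 and 2 with ethanol, a ratio of 1.78 (0.695 to 5.13). The BH3-only genes BID, BIK and BBC3 had between 0 and 2 reads in each library, and BAD, BMF and BCL2L11 had none.

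Per kilobase of readable bases the order of levels changed between groups. With methylparaben, PMAIP1 led at 285 CPM per kilobase, followed by CYCS at 68.6, MCL1 at 34.4, BCL2L2 at 24.3 and TNFRSF10D at 22.6. With ethanol, PMAIP1 stood at 291 CPM per kilobase, then BIRC3 at 113, CYCS at 58.3, MCL1 at 34.3, TNFRSF10D at 23.0 and CFLAR at 20.8. BIRC3 was thus the second of the 13 in ethanol libraries, and with methylparaben it had 6.54 CPM per kilobase. CFLAR had 5.55 CPM per kilobase with methylparaben. The neighbours BCL2L2 and TNFRSF10D with methylparaben overlapped in spread. These levels assume that every readable base is covered alike, which did not hold for all genes. All MCL1 reads came from a transcript with 286 of the gene's 437 readable bases. The order between genes thus depends on which transcripts are readable, and is not an order of RNA levels.

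At the level of single transcripts, 58 of the 354 annotated transcripts of these genes had reads and 15 could be tested. Of these 7 passed (46.7%), 1 higher and 6 lower, against 39.4% of all 9167 transcripts tested (20.3% higher and 19.1% lower). Without ethanol 1 only 3 passed, BIRC3-201, CFLAR-201 and BCL2-203, and without methylparaben 2 those 3 and CASP8-220. BCL2-203, read on chr18:63313802-63318081 near the start of the gene, nearly all 3′ UTR, had 8 and 7 reads with methylparaben and 41 and 61 with ethanol, a log2 fold change of -2.99 ± 0.51 (adjusted p = 0.00176). BCL2-202 had 53 and 13 reads with methylparaben and 46 and 43 with ethanol. Its log2 fold change was -0.82 ± 0.43 (adjusted p = 0.154). Its readable bases are the distal 3′ UTR of the gene (chr18:63123346-63127034) and 563 bases of 5′ UTR. The larger fall was therefore on the bases of BCL2-203, the transcript that ends early. Those bases lie inside BCL2-202 but outside its exons, so unspliced BCL2 RNA cannot be told apart from BCL2-203. In edgeR's diffSpliceDGE test, neither transcript passed against the gene as a whole (adjusted p = 0.0639 for BCL2-203 and 0.299 for BCL2-202). The difference between them, taken per gene, passed in that test (adjusted p = 0.0106), in which 40.6% of 1172 genes passed. It was lost without methylparaben 1 (0.450), without ethanol 2 (0.0963) and without a filter on low counts (0.124), with a range of 0.00509 to 0.450 over its 10 alternatives.

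CFLAR-201 carried 91.0% of CFLAR reads and fell by 2.01 ± 0.19 on the log2 scale (adjusted p = 8.2e-05). It had 320 and 136 reads with methylparaben and 735 and 733 with ethanol. Most of its readable bases lie in a long 3′ UTR stretch (chr2:201167547-201176687). CFLAR-215, which ends at an earlier site, had 26 and 10 reads with methylparaben and 31 and 26 with ethanol, a log2 fold change of -0.98 ± 0.47 (adjusted p = 0.119). CFLAR-225, a short coding transcript from an internal start, had 1 and 0 reads with methylparaben and 13 and 10 with ethanol, a ratio of 0.0339 (0.000824 to 0.209). Its adjusted p was 0.00520, and it passed in none of the fits that left out 1 library. The CFLAR transcripts differed in their change (diffSpliceDGE adjusted p = 0.0182), a call lost without methylparaben 1 (0.162), without ethanol 1 (0.0607) and under a stricter filter (0.0905), with a range of 0.00294 to 0.162 over 10 alternatives. Against the gene as a whole, no tested CFLAR transcript passed in diffSpliceDGE (adjusted p = 0.998 for CFLAR-201, 0.232 for CFLAR-215 and 0.0960 for CFLAR-225). CASP4-207, a retained-intron transcript, had 37 and 15 reads with methylparaben and 52 and 44 with ethanol. It fell by 1.20 ± 0.39 on the log2 scale (adjusted p = 0.0326). CASP4-213 had 10 and 6 reads with methylparaben and 3 and 3 with ethanol, too few to test. BCL2L2-201 held 99.8% of BCL2L2 reads and rose by 0.97 ± 0.28 on the log2 scale (adjusted p = 0.0195). With 1 library left out, CASP4-207 and BCL2L2-201 each passed without methylparaben 1 and in none of the other 3 fits.

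**Figure D4:**
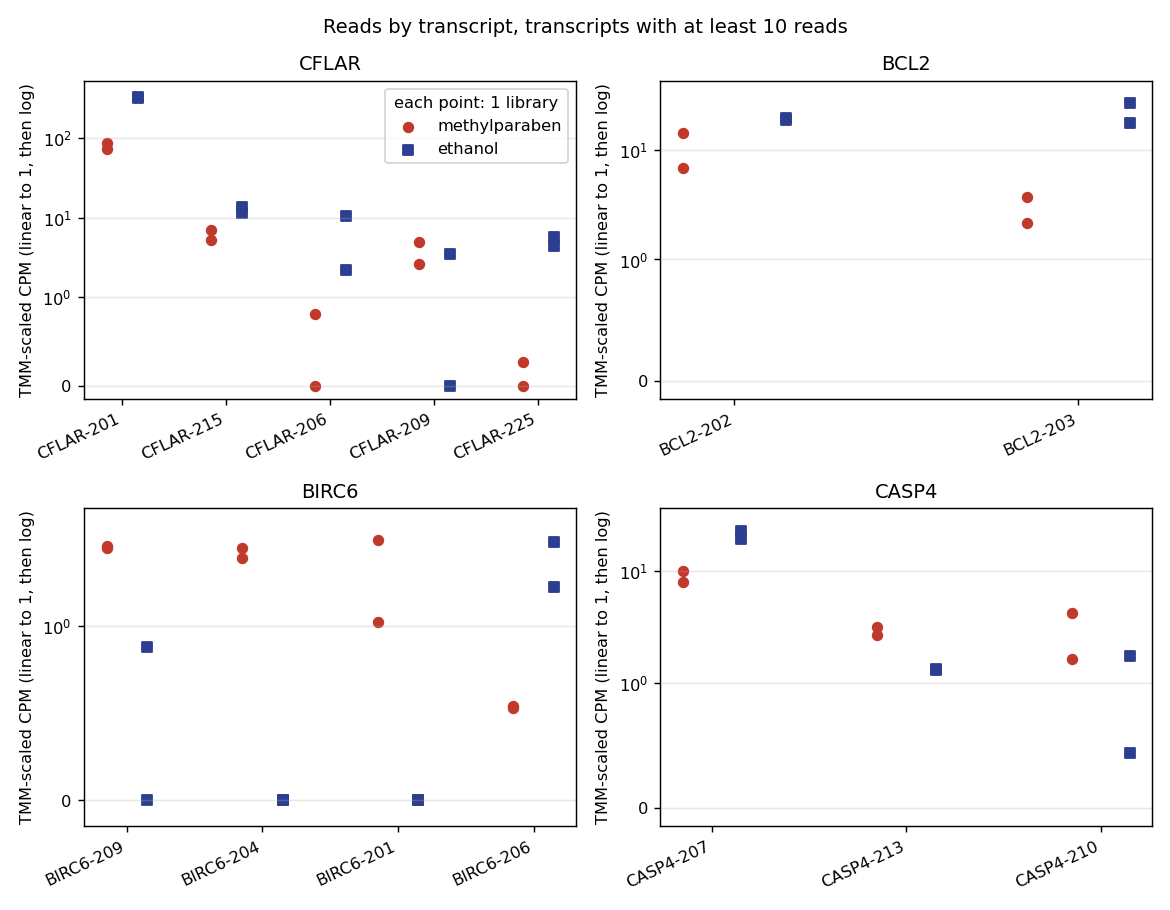
TMM-scaled CPM of CFLAR, BCL2, BIRC6 and CASP4 transcripts with at least 10 reads, 1 point per library, methylparaben left of ethanol, on an axis that is linear to 1 and logarithmic above. BCL2-203 separates the groups more than BCL2-202 does, and BIRC6-204 and BIRC6-201 are at 0 in both ethanol libraries while BIRC6-206 is higher in them.

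In the authors' deposited table, 9 transcripts of these genes had an adjusted p under 0.05, which is 15.5% of the 58 with reads, against 11.1% of all 40279 transcripts with reads. Of these 9, 6 also passed here, and the other 3, CFLAR-206, BIRC6-201 and BIRC6-204, had too few reads for the filter used here. CFLAR-206 had 3 and 0 reads with methylparaben and 24 and 5 with ethanol, a ratio of 0.0808 (0.0157 to 0.261).

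Other genes of the apoptosis pathway, 74 by a list of names, gave a similar share: 27 were tested and 10 passed (37.0%), 4 higher and 6 lower, with a median log2 fold change of 0.06. Among them GSPT1, a translation termination factor with a processed form that binds IAPs, had 137 and 54 reads with methylparaben and 389 and 427 with ethanol (-2.40 ± 0.23, adjusted p = 0.000115). FAF1, which encodes a FAS-associated protein, had 8 and 5 reads with methylparaben and 39 and 39 with ethanol (-2.81 ± 0.50, adjusted p = 0.0024). Lower too were MTCH2, a mitochondrial outer membrane protein that receives BID (-1.19 ± 0.19, adjusted p = 0.00133), and BCL2L13, a BCL2 relative of that membrane (-1.95 ± 0.38, adjusted p = 0.0039). CYLD, a deubiquitinase of receptor signalling, fell by 1.07 ± 0.26 on the log2 scale (adjusted p = 0.0112). In limma on log2(FPKM + 1) CYLD did not pass (adjusted p = 0.130). TNFRSF11B, a soluble decoy receptor, had 0 and 2 reads with methylparaben and 11 and 11 with ethanol, a ratio of 0.0710 (0.00809 to 0.289), with an adjusted p of 0.0228. It did not pass with DESeq2 (adjusted p = 0.0947) or without methylparaben 1 (0.266), could not be tested without either ethanol library, and its log2 fold change of -3.49 became -6.71 without methylparaben 2 and -2.12 without methylparaben 1.

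The pathway genes that rose were BCLAF1, a BCL2-associated nuclear factor (1.30 ± 0.31, adjusted p = 0.0104), ACIN1, a nuclear caspase substrate (1.31 ± 0.40, adjusted p = 0.0275), OTULIN, a deubiquitinase of linear ubiquitin chains (0.57 ± 0.18, adjusted p = 0.0287), and DFFA, the inhibitor of the apoptotic nuclease (0.54 ± 0.17, adjusted p = 0.0334). Retained-intron transcripts held 59.5% of BCLAF1 reads and 80.3% of ACIN1 reads, and no read of either lay on a coding transcript. In edgeR, DFFA and OTULIN missed the threshold scaled by library size only (adjusted p = 0.113 and 0.0979), with a replicate block (0.0862 and 0.0718) and without a filter (0.0848 and 0.0551). In DESeq2, DFFA (0.0562) and ACIN1 (0.0605) missed it. So did DFFA and OTULIN in limma on log2(FPKM + 1) (adjusted p = 0.118 and 0.139). DFFA, OTULIN and ACIN1 also missed it in most of the fits that left out 1 library. BCLAF1 missed it in limma on log2(FPKM + 1) (0.0533) and in edgeR without retained-intron transcripts (0.0644). Without ethanol 1, 5 of the pathway genes passed: GSPT1, FAF1, MTCH2, BCL2L13 and BCLAF1. SESN2, a stress-induced sestrin, had 67 and 130 reads with methylparaben and 29 and 41 with ethanol, or 18.2 and 68.0 CPM against 12.3 and 17.7 CPM. Methylparaben 2 was far above the other libraries, and the log2 fold change of 1.48 ± 0.55 missed the threshold (adjusted p = 0.0570). It was 2.17 without methylparaben 1 (adjusted p = 1.6e-08) and 0.31 without methylparaben 2 (adjusted p = 0.623), and across its other alternatives SESN2 passed in some and not in others. BIRC5, which encodes survivin, had 0 and 0 reads with methylparaben and 3 and 1 with ethanol on 678 readable bases.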

How the data were processed

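Polyadenylated RNA of 4 H1299 samples was sequenced after TruSeq library preparation, per the labels' protocols. The authors deposited raw read counts per transcript for 206601 transcripts, FPKM values and log2 values of FPKM plus 1, per the file headers, with p-values, raw and adjusted, of a comparison whose test is not named. The submitters' processing notes list GRCh38, DESeq2, limma and edgeR without roles, and name neither aligner nor counter. None of 70749 transcripts without a base of its own had a read.

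Positions came from GENCODE 29, which matched all 206601 transcripts, and are on GRCh38 counted from 1. Counts were summed per gene identifier, filtered (filterByExpr, minimum count 10, minimum total 15), scaled by TMM and compared with edgeR 4.0.16 (R 4.3.3, quasi-likelihood F-test, two-sided, Benjamini-Hochberg over 8055 genes, threshold 0.05). The SE is the log2 fold change over the square root of F. Transcripts were fitted likewise over 9167. The test of differences between transcripts of a gene (diffSpliceDGE) was added after the values were seen. DESeq2 1.42.0 and limma 3.58.1 were alternatives, and the code was tested on simulated data. Ratios of genes with few reads use raw totals and exact 95% binomial intervals. Promoter entries matched 29 of the 38 symbols.

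The regulators and the other lists were chosen with earlier results of these data known. By rule, every regulator is accounted for, and the other genes named are those called, plus BIRC5. SESN2 was named after its values were seen, and some genes of the lists are not reported here. Transcripts named are the leading ones of genes called or with several tested transcripts. CASP4-207, CASP4-213, BIRC6-206 and MCL1-203 were named after their values were seen.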

Additional observations from a re-analysis of the deposited data

How the results depend on the processing

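BIRC3, CFLAR and BCL2 kept their direction and passed in all 17 alternatives and CASP8 in all 16 it could be tested in, with adjusted p up to 0.00464, 0.0215, 0.0397 and 0.0431. CASP8 could not be tested on protein-coding transcripts only, which held 5.06% of its reads. For BCL2 that setting still includes BCL2-203. BCL2L2 passed in 13 of 17 and BIRC6 in 10 of 15. BIRC6 could not be tested without retained-intron transcripts, which held 77.9% of its reads, or on protein-coding transcripts only. The count of changed genes, 2976, was 1899 in limma on log2(FPKM + 0.1) and 1867 on protein-coding transcripts only, which tests fewer genes, and 1677 to 3095 when 1 library was left out. Changed regulators then numbered 4 to 7, changed pathway genes 5 to 10 and changed transcripts of the regulators 3 to 8. The pathway count was 6 in limma on log2(FPKM + 0.1), for which the cause was not tested. With a library left out, the lone sample is assumed to vary like the other group.

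Of regulators that passed in no setting, TNFRSF10D turned to 0.056 without retained-intron transcripts and 0.10 on protein-coding ones, PMAIP1 to 0.054 and 0.099, MCL1 to 0.068 without retained-intron transcripts and 0.022 under the crossed pairing, CASP2 to -0.046 in limma voom, and CASP4 to 0.17 and 0.19 in limma on log2(FPKM + 1) and log2(FPKM + 0.1). With 1 library left out, TNFRSF10D ranged from -0.15 to 0.10, CASP2 from -0.62 to 0.90, MCL1 from -0.28 to 0.33 and PMAIP1 from -0.15 to 0.10. The cause was not tested.

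The replicate numbers were not shown to pair the libraries (correlation of same-numbered deviations -0.15). With a replicate block, 2488 genes, 5 regulators, 9 pathway genes and 7 transcripts passed, BIRC6 having an adjusted p of 0.0519. With the crossed pairing, chosen after seeing the data, these counts were 3292, 6, 11 and 7. Scaling by library size only gave 1336 genes higher and 1681 lower and moved the median log2 fold change of all genes to -0.08. At this depth 13 regulators with 1 to 23 reads were not tested for change, and how far depth or readable bases set this was not tested.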
